A study of Rattus norvegicus with 6 samples.

Results

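The genes described here build cell junctions, anchor cells to the extracellular matrix or make and cut that matrix. They were chosen by symbol from the array's gene annotation: integrin chains, collagens, laminin chains, fibronectin, matrix metalloproteinases and their Timp inhibitors, claudins, cadherins, connexins, zonula occludens and occludin genes, Epcam, Pecam1, and desmosome genes. The rule found 106 genes among the 10411 genes with a single symbol, each represented by its brightest probe set on average. Their messenger RNA was measured in AR42J, a cell line from a rat exocrine pancreas tumour, after 48 h in medium with 5% serum without dexamethasone (control, 3 cultures) or with 100 nM of this synthetic glucocorticoid (dexamethasone, 3 cultures). Before these 48 h, every culture was plated in medium with more serum, so both groups shared the step down to 5% serum. All cultures came from stocks at passage 29, so the values describe 1 line at 1 dose and 1 time, and p-values measure the spread between cultures of that line.

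Epithelial cells are joined by tight junctions, which seal the gap between neighbours, by cadherin-based adherens junctions and desmosomes, which carry mechanical load, and by gap junctions, channels made of connexins through which ions and small molecules pass. Integrins bind the same cells to a basement membrane of laminin and type IV collagen. Pancreatic acinar cells are known for extensive gap junctions, built mainly from the connexins encoded by Gjb1 and Gjb2, and their secretory polarity depends on intact contacts.

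The labelled cell type was checked against markers. All 13 acinar genes found on the array, digestive enzymes among them, were above background on all 6 arrays. So were 6 of 9 epithelial markers, the keratins Krt8 and Krt18 among them. The other epithelial markers, Cdh1, Cldn4 and Cldn7, were above background on only some arrays. Of 8 duct markers, 7 were above background on all 6 arrays, all but Spp1, so detection did not set acinar genes apart from duct genes. The summed signal of 14 stromal markers was 1446 to 1944 in controls and 1603 to 1822 with dexamethasone, with 6 of the 14 (Col1a1, Col3a1, Col6a1, Dcn, Acta2 and Thy1) above background on all 6 arrays and 3 (Lum, Tagln and Postn) on none. None of the 3 stromal markers bright enough to test passed. Of 13 neuroendocrine markers, 6 (Chga, Chgb, Scg3, Syp, Ins1 and Cdh2) were above background on all 6 arrays and 1 (Gcg) on none. For 12 immune markers these numbers were 3 and 4, and none of the 3 tested passed. Signals are relative to each array's total, whose trimmed mean was about 500. The background level, set for each array as its highest signal among 27 bacterial control probe sets, ranged from 51.7 to 115.9. Dexamethasone culture 3 stood apart on the second principal component (10.0% of the variance), at 25.3, while the 2 remaining treated arrays were at -11.6 and -12.6, so values without pair 3 are given where they matter. The cultures are described as 3 independent pairs, but no label states that equal replicate numbers mark a pair. Here a pair means same-numbered cultures, and the fit used that number as a block; without it, 6 members were called higher and 10 lower, with Epcam no longer called.

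Many of these genes were dim. Only 45 of the 106 (42.5%) had a mean signal at or above the test's filter of 147.6, against 67.7% of all genes, and 13 were not above background on any array. On either side of the filter lay Mmp17 and Mmp12 (138.0 and 139.9, not tested) and Cdh17 and Col6a1 (148.3 and 149.8, tested). Of the 45 tested, limma called 17 changed at an adjusted p under 0.05, 6 higher and 11 lower with dexamethasone. That is 37.8% of those tested, beside 38.4% of all 7051 genes tested and 37.1% of all probe sets tested. Among the called, Pecam1 and Col9a2 (higher) and Itgb3bp (lower) passed the filter only through the group with the higher signals. The same filter was applied to all genes. Signals of the groups did not overlap for 26 of the 45, beside 51.0% of tested genes. Taken by direction, 13.3% of tested members were higher, beside 17.0% of all genes, and 24.4% were lower, beside 21.4%. These shares lie near the background, and the set as a whole was not called more often than genes in general. Its median log2 change was -0.10, against -0.04 for all genes tested.

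**Figure D1:**
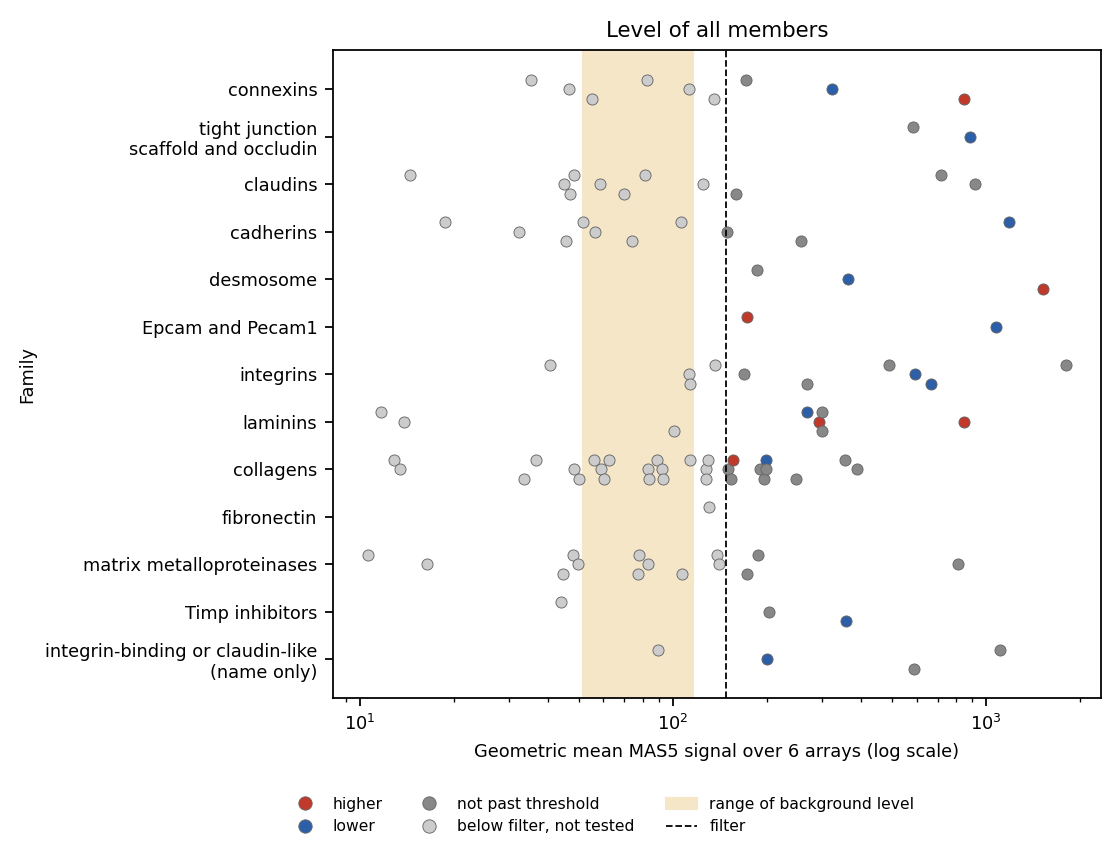
Geometric mean MAS5 signal over the 6 arrays (horizontal, log scale) for each of the 106 genes, by family, with colour for the test result. The shaded band is the range of background levels (51.7 to 115.9) and the dashed line the filter at 147.6; 61 genes lie left of the line, and positions of different probe sets are not comparable as RNA levels.

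The balance of directions moved with array scaling. Centring on the 75th percentile gave 11 higher and 10 lower, and scaling to hybridization controls gave 5 higher and 18 lower. Members made up 52.4% and 21.7% higher among their calls in these settings, beside 58.6% and 20.4% for all genes. The median change of all genes was 0.08 and -0.29 in these settings, and changes of single genes are relative to these shifts. None of the 17 calls turned direction in any of the 12 alternative fits that tested them, and 9 kept their call wherever they were tested: Gjb1, Gjb2, Cdh2, Pkp4, Lama5, Lamb1, Lamb2, Timp2 and Itgb3bp. Of these, Gjb2, Lamb1, Lamb2 and Itgb3bp were too dim for the stricter filter and faced fewer fits. Itgb3bp passed the main filter only through its control signals, so its kept call says little. Fits without a pair rest mostly on variance borrowed from other probe sets, so a call kept there says little about spread between cultures. Below, log2 changes are dexamethasone minus control ± SE, and adjusted p-values are limma's after Benjamini-Hochberg adjustment over all 9520 probe sets tested.

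**Figure D2:**
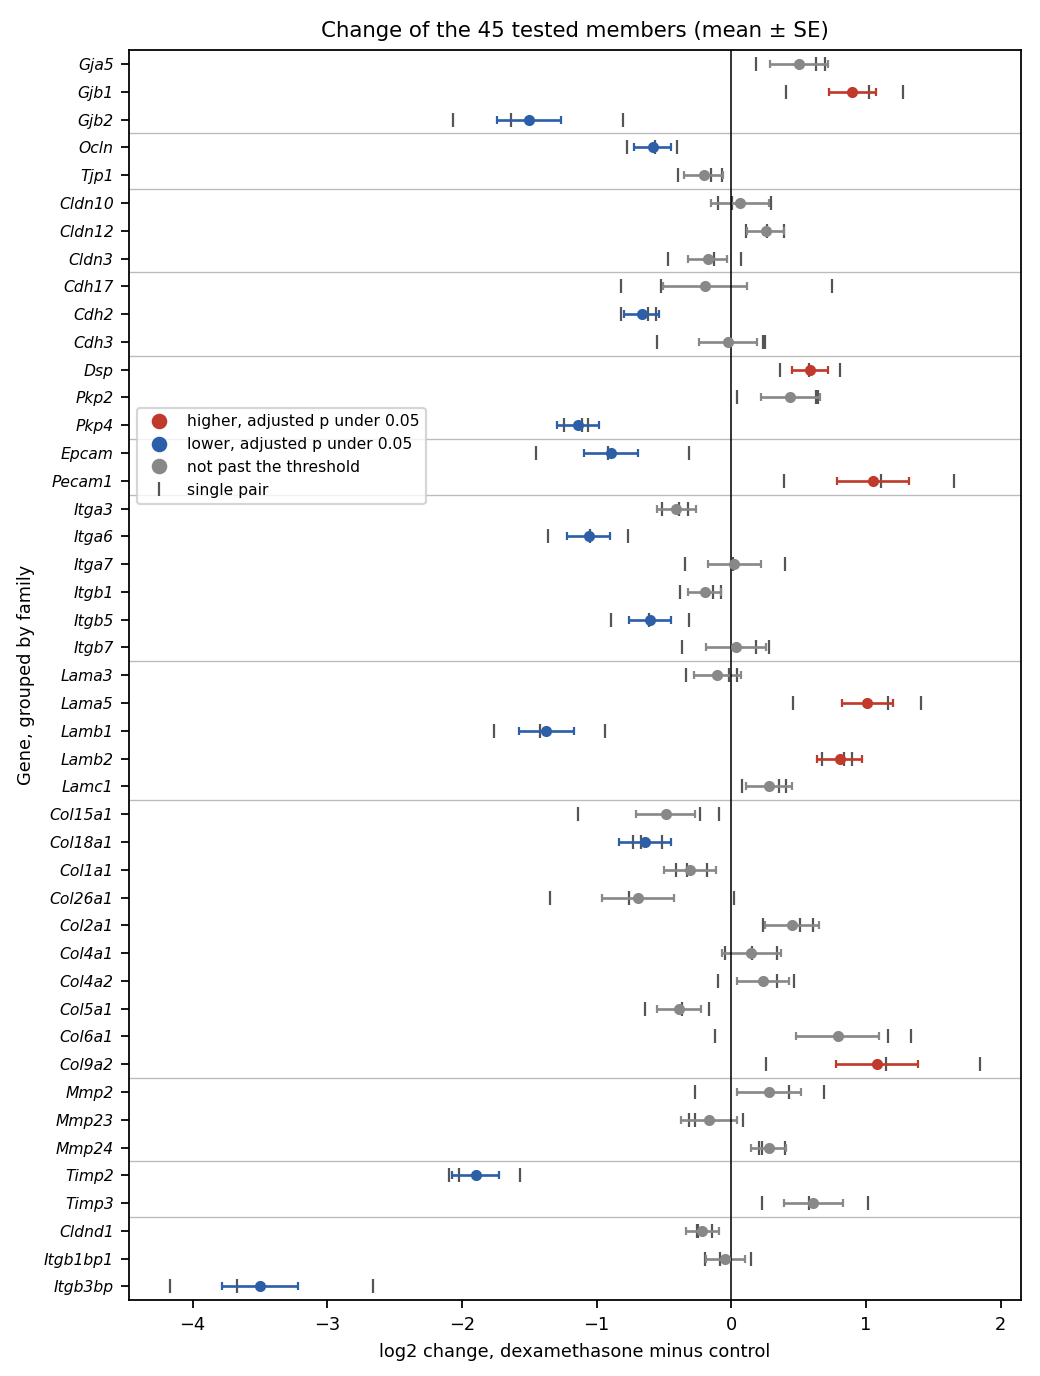
Log2 change of the 45 tested genes, grouped by family (points with bars, mean ± SE from limma; ticks, single culture pairs). The 6 called risers lie between 0.58 and 1.08, and 10 of the 11 called fallers between -1.90 and -0.58. Itgb3bp lies farthest to the left, but it was not above background with dexamethasone, so its position is no measured size.

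Connexins split in direction. Gjb1 and Gjb2 encode subunits of the same acinar gap junctions, and Gjb1 rose while Gjb2 fell. Lama5 and Lamb1, which encode laminin chains, likewise went opposite ways. The 250 bases upstream of the transcription start of these 4 genes are shown because each family split in direction (RefSeq, build GRCr8, strand of the gene, CG dinucleotides in capitals). The windows are Gjb1 at chrX:70541595-70541844 (+ strand), Gjb2 at chr15:35381954-35382203 (- strand), Lama5 at chr3:187695975-187696224 (- strand) and Lamb1 at chr6:53562846-53563095 (+ strand).
Gjb1: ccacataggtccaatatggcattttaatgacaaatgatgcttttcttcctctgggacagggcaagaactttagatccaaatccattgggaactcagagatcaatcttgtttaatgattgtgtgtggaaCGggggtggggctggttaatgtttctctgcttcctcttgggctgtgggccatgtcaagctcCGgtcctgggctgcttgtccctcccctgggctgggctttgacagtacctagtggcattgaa
Gjb2: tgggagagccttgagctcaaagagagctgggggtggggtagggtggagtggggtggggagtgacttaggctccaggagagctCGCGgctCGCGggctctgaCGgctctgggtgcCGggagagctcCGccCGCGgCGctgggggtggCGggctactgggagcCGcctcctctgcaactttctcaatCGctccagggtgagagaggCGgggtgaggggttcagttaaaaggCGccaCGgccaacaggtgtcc
Lama5: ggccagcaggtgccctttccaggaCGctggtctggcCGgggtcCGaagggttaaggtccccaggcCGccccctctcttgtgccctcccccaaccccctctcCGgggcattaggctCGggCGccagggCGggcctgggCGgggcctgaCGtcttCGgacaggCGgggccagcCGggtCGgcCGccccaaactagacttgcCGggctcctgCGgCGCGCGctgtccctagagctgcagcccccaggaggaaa
Lamb1: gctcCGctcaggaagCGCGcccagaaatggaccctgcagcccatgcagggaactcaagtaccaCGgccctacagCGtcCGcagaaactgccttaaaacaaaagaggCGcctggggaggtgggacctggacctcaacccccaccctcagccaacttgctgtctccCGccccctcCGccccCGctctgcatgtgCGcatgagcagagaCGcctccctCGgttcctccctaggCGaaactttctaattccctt
The Gjb1 window held 2 CG dinucleotides, whereas that of Gjb2 held 16, Lama5 20 and Lamb1 14. The median over all 33469 such windows of the genome was 5. Windows were found for 13 of the 17 called genes, 4 higher and 9 lower, with 2 to 29 CG in the former and 12 to 33 in the latter, so the directions overlapped in CG content. The glucocorticoid receptor binds pairs of inverted hexamers spaced as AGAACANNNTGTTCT, and each hexamer reads as the other on the opposite strand. None of the 13 windows held either hexamer, of which 17.5% of all windows hold at least 1, or the full motif, which 4 windows (0.0120%) hold. This says only that these letters are not in these windows.

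Gjb1, whose connexin forms gap junctions of liver and acinar cells, read 628.2, 618.1 and 616.3 in the 3 controls and 1274, 1493 and 817.3 in the 3 treated cultures. Every treated signal lay above every control signal, and dexamethasone 3 was the lowest of the treated. The rise was 0.90 ± 0.18 (adjusted p = 0.00450), higher in 3 of 3 pairs, and 1.15 without pair 3. Gjb2, whose connexin shares those channels, read 456.0, 581.1 and 604.1 in controls and 146.5, 333.2 and 144.0 with dexamethasone. The groups again did not overlap, with dexamethasone 2 nearest to the controls, and the fall was -1.50 ± 0.24 (adjusted p = 0.00141), or -1.85 without pair 2 and -1.22 without pair 3. Gja5, an artery and heart connexin, averaged 143.6 ± 12.1 and 204.6 ± 28.3 (SD, n = 3 per group) and did not pass (0.50 ± 0.22, adjusted p = 0.10), though it did with 75th percentile centring and with no intensity trend. The other 6 connexins (Gja1, Gja3, Gja4, Gja6, Gjb5 and Gjb6) were too dim to test. Gjb6, the next protein-coding gene beside Gjb2 on GRCr8, was not above background on any array.

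**Figure D3:**
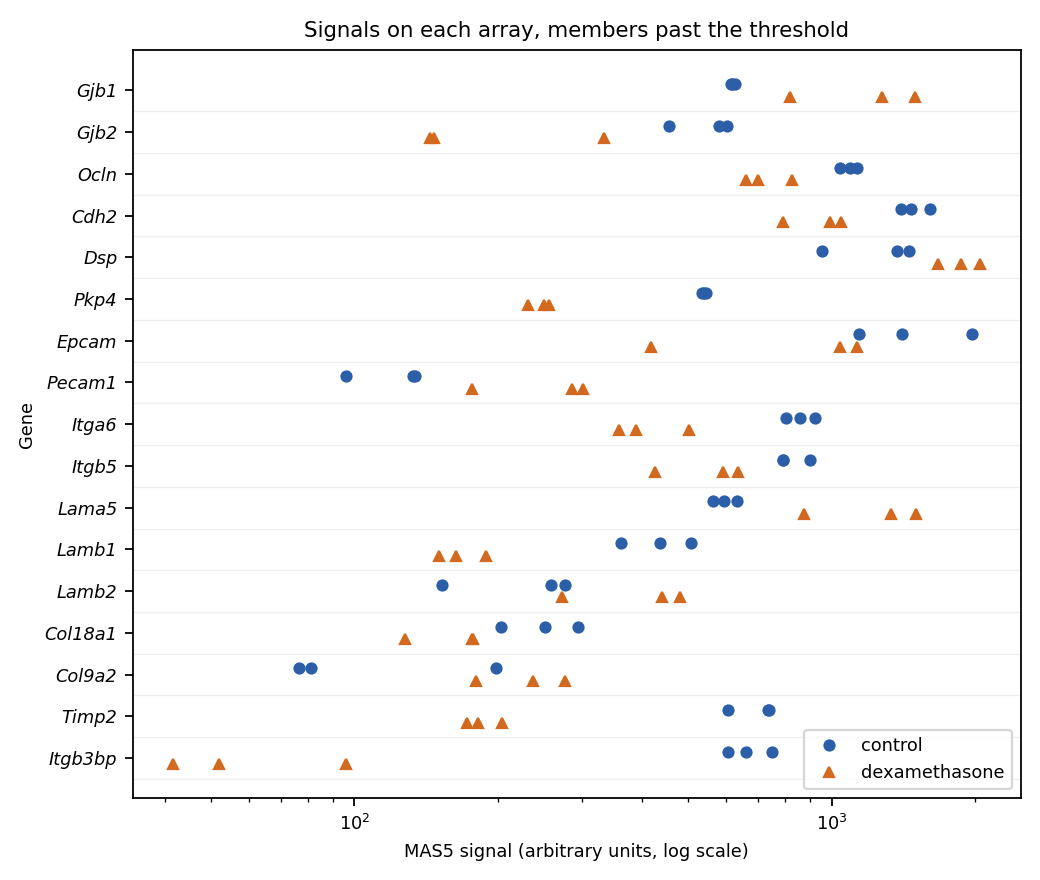
MAS5 signal on each array (log scale) for the 17 called genes, 3 control (circles) and 3 dexamethasone (triangles) cultures per gene. Groups are separate for 15 genes and overlap for Lamb2 and Col9a2, and Itgb3bp has the widest gap, from 606.3 in the lowest control to 95.9 in the highest treated culture.

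Among tight junction genes, occludin fell and none of the 3 tested claudins was called. Ocln, a transmembrane protein of the tight junction strand, read 1092, 1041 and 1128 in controls and 824.7, 702.5 and 659.9 with dexamethasone. No treated signal reached the control range (-0.58 ± 0.14, adjusted p = 0.0104), and a dimmer probe set of Ocln fell by 0.97 ± 0.21 (adjusted p = 0.00732). The call was lost without pair 2 (-0.59) and without pair 3 (-0.49). Tjp1, the scaffold that links the strands to actin, averaged 625.8 ± 23.6 and 545.0 ± 52.0 and did not pass (-0.20 ± 0.15, adjusted p = 0.310). Of 11 claudins, the sealing and pore proteins of the strands, 3 were tested and none passed. Cldn3, a sealing claudin, averaged 985.0 ± 124.4 and 871.0 ± 97.9 (-0.18 ± 0.15), Cldn12 averaged 656.7 ± 63.2 and 782.9 ± 32.8 (0.26 ± 0.14), and Cldn10 had a change of 0.07 ± 0.22. Cldn1, Cldn2, Cldn4, Cldn5, Cldn7, Cldn11, Cldn16 and Cldn19 were too dim to test.

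Among 10 cadherins, Cdh2 was the only one of the 3 tested that passed. Cdh2, or N-cadherin, the calcium-dependent adhesion molecule of neural and endocrine cells, read 1396, 1465 and 1606 in controls and 791.6, 993.6 and 1044 with dexamethasone. The groups did not overlap (-0.67 ± 0.13, adjusted p = 0.00371), and a second probe set fell by 0.63 ± 0.13. Cdh2 was also on the neuroendocrine list. Of the 6 tested there, Cdh2 fell, Chgb rose (0.56 ± 0.12) and 4 did not pass. That is 16.7% each way, beside 17.0% higher and 21.4% lower of all genes tested. Cdh1, or E-cadherin, the classical epithelial cadherin, was above the array's background on 2 control arrays and 1 treated array (153.6, 135.8 and 10.5, then 30.9, 124.3 and 22.8) and was not tested. Its neighbour in the genome, Cdh3 (P-cadherin), averaged 260.1 ± 29.5 and 260.8 ± 66.4, and Cdh17, an intestinal cadherin, changed by -0.19 ± 0.31; neither passed. Cdh6, Cdh11, Cdh13, Cdh16, Cdh22 and Cdh23 were too dim to test.

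The 3 desmosome and plakophilin genes split. Dsp, which ties desmosomes to keratin filaments, read 1451, 954.1 and 1372 in controls and 1868, 1673 and 2050 with dexamethasone, a rise of 0.58 ± 0.13 (adjusted p = 0.00827). The call was lost with hybridization control scaling (0.34) and without pair 2 (0.47). Pkp4, a plakophilin-related armadillo protein found at adherens junctions, read 538.8, 544.6 and 534.7 in controls and 249.5, 230.7 and 256.0 with dexamethasone. Both groups were tight and far apart (-1.14 ± 0.16, adjusted p = 0.000621). Pkp2, a desmosomal plakophilin, averaged 159.1 ± 10.4 and 221.6 ± 60.9 and did not pass (0.44 ± 0.22, adjusted p = 0.149).

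Epcam and Pecam1, adhesion molecules of epithelium and of endothelium, moved in opposite directions. Epcam read 1968, 1404 and 1142 in controls and 1041, 1130 and 418.8 with dexamethasone, a fall of 0.89 ± 0.20 (adjusted p = 0.00807). The highest treated signal lay just under the lowest control signal, and dexamethasone 3 was far below the rest; the fall was 0.62 without pair 3, and the call was lost with no replicate block. The keratin gene Krt18 also had its lowest signal in dexamethasone 3, 1473 against 3379 and 2673, and so did Krt19, 316.2 against 1388 and 1423. Of 6 tested epithelial markers, 4 of them also members here, 4 fell, Epcam itself among them, and 1 rose. Of 6 tested duct markers 4 fell and 1 rose, and their summed signal over the 8 on the array went from between 4840 and 6022 to between 2080 and 3221. Of 11 tested acinar markers 8 rose and none fell, and the summed signal of the 13 on the array went from between 83655 and 98622 to between 126303 and 143037. A few probe sets with large signals weigh most in these sums, so the sums do not measure a change shared by each list. In the acinar list, mean signals went from 726.1 to 15481 for Prss1 and from 4450 to 15484 for Cela2a. In the duct list, Krt19 went from 2721 to 1042. In percent of those tested, 16.7 rose and 66.7 fell in both the epithelial and the duct list. In the acinar list 72.7% rose. Among all genes tested, 17.0% were higher and 21.4% lower. The part of these marker changes in the Epcam result was not tested, and in bulk RNA fewer cells of a type and less RNA per cell cannot be told apart. Pecam1 read 133.9, 132.4 and 95.9 in controls and 176.0, 286.0 and 301.9 with dexamethasone, all treated above all control signals (1.05 ± 0.27, adjusted p = 0.0143); the call was lost without pair 2 (1.02). Its control mean of 120.7 was below the filter, so it was tested only through its treated signals. Of 10 endothelial markers on the array, only Pecam1 itself and Esam were bright enough to test, and both rose. Plvap, an endothelial gene below the filter, went the other way, from 80.7, 323.8 and 267.6 in controls to 35.5, 35.9 and 38.3, not above background, with dexamethasone (at least 1.93-fold lower, not tested). The summed signal of the list, which includes Pecam1, was 952.2 to 1157 in controls and 1088 to 1274 with dexamethasone. In it, 3 markers (Pecam1, Esam and Flt1) were above background on all 6 arrays and 2 (the receptors Kdr and Eng) on none. The part of endothelial RNA in the Pecam1 result was not tested.

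Integrins, the matrix receptors made of an alpha and a beta chain, had 2 fallers and no riser among 6 tested of 10. Itga6, whose product joins a beta chain to bind laminin, read 921.4, 856.6 and 803.9 in controls and 358.0, 502.8 and 389.3 with dexamethasone (-1.06 ± 0.16, adjusted p = 0.00107). Its groups lay well apart, but a dimmer probe set averaged 141.2 ± 39.4 and 203.3 ± 32.1 and went the other way without passing (0.55 ± 0.23, adjusted p = 0.0953). With both averaged, the change was -0.25 and no call was made. Itgb5, part of a vitronectin receptor, read 790.1, 791.9 and 900.2 in controls and 425.6, 635.9 and 590.6 with dexamethasone (-0.61 ± 0.16, adjusted p = 0.0153), a call lost without pair 1 (-0.46). Its second probe set changed by -0.38 ± 0.16 and did not pass. Itgb1, the common beta chain of most matrix-binding integrins, averaged 1939 ± 266 and 1682 ± 80 and did not pass (-0.20 ± 0.12, adjusted p = 0.236). A second Itgb1 probe set fell from 983.8 ± 101.3 to 642.0 ± 75.1 (-0.62 ± 0.15, adjusted p = 0.0133), and with both averaged, or with hybridization control scaling, Itgb1 was called lower. Itga3, a laminin receptor chain, just missed the threshold (568.5 ± 79.5 and 426.6 ± 38.0, -0.41 ± 0.15, adjusted p = 0.0543) and was called lower in 3 alternatives. Itga7 and Itgb7 changed by 0.02 ± 0.20 and 0.03 ± 0.23, and Itga1, Itga2b, Itga8 and Itgb4 were too dim to test.

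**Figure D4:**
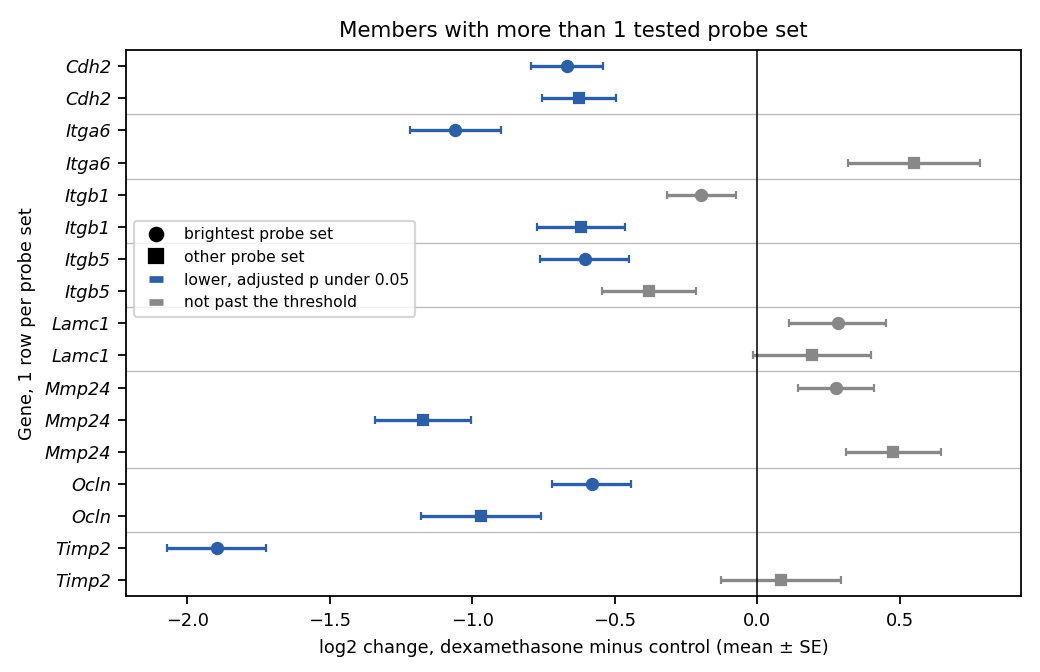
Log2 change (mean ± SE from limma) of every tested probe set for the 8 genes with more than 1, the brightest as a circle and the others as squares. Probe sets of Cdh2 and Ocln fall together, whereas those of Itga6, Mmp24 and Timp2 lie on both sides of 0.

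Laminin chains changed in both directions, and the tested beta chains went opposite ways. Laminins are trimers of an alpha, a beta and a gamma chain, and either beta chain measured here can pair with the alpha chain of Lama5 and the gamma chain of Lamc1. Lama5 read 634.7, 564.2 and 593.9 in controls and 873.2, 1500 and 1331 with dexamethasone (1.01 ± 0.19, adjusted p = 0.00324), with no overlap. A dimmer Lama5 probe set averaged 93.1 ± 8.6 and 106.9 ± 3.5, near background, and with both averaged the rise was 0.61 and still called. Lamb1 read 437.6, 361.4 and 508.3 in controls and 163.3, 188.3 and 150 with dexamethasone, again with no overlap (-1.37 ± 0.20, adjusted p = 0.000980). Lamb2 read 257.6, 152.3 and 275.8 in controls and 480.0, 272.7 and 440.9 with dexamethasone. Its ranges overlapped, culture 2 was the lowest in both groups, and each treated signal exceeded the control of its own number (0.81 ± 0.17, adjusted p = 0.00581). Lamc1 averaged 272.3 ± 27.6 and 331.0 ± 35.4 (0.28 ± 0.17, adjusted p = 0.230) and Lama3, an epithelial alpha chain, 314.5 ± 58.0 and 290.2 ± 27.8 (-0.10 ± 0.17), and neither passed. Lama1, Lama2 and Lama4 were too dim to test.

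Of 29 collagen genes, 10 were tested and 2 passed. Col18a1, a basement membrane collagen, read 202.7, 294.3 and 251.3 in controls and 127.4, 177.2 and 175.9 with dexamethasone (-0.64 ± 0.19, adjusted p = 0.0302). The groups were separate, but the call was lost without any 1 of the 3 pairs (-0.70 to -0.59), in the fit with no filter and after 75th percentile centring. Col9a2, a chain of a cartilage collagen, read 76.5, 198.0 and 81.1 in controls and 275.7, 236.2 and 179.8 with dexamethasone (1.08 ± 0.30, adjusted p = 0.0226). Its control mean of 118.5 was below the filter, so it was tested only through its treated signals. Control 2 lay inside the treated range, and the call was lost without pair 1 (0.70) and with no filter. The genes of the main type IV chains, Col4a1 and Col4a2, are neighbours in the genome and neither passed (0.15 ± 0.22 and 0.24 ± 0.19). Col5a1, a fibrillar collagen chain, averaged 442.6 ± 33.5 and 337.9 ± 29.6 and did not pass (-0.39 ± 0.16, adjusted p = 0.0956), except with hybridization control scaling, where it was lower. Col1a1 (-0.30 ± 0.19), Col2a1 (0.45 ± 0.20), Col6a1 (0.79 ± 0.31), Col15a1 (-0.49 ± 0.22) and Col26a1 (-0.69 ± 0.27) did not pass either. The other 19 collagens were too dim to test. Among these, Col3a1, a fibroblast collagen, read 107.5, 102.1 and 101.8 in controls and 161.7, 162.5 and 158.9 with dexamethasone. It did not pass in the fit with no filter (0.63 ± 0.25, limma adjusted p = 0.122). Fn1, encoding fibronectin, was above background on all arrays but below the filter (113.6 ± 32.7 and 160.6 ± 52.2) and was not tested.

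Matrix metalloproteinases, the enzymes that cut these proteins, gave no call, and 1 of their inhibitors fell strongly. Of 14 Mmp genes, 3 were tested. Mmp24, a membrane-bound enzyme, averaged 742.6 ± 58.1 and 900.6 ± 84.4 (0.28 ± 0.13, adjusted p = 0.136), but its 3 probe sets disagreed. One fell from 433.4 ± 94.6 to 191.9 ± 39.3 (-1.17 ± 0.17, adjusted p = 0.000810), and another changed by 0.48 ± 0.17 without passing, so no direction is given for this gene. Mmp2 (0.28 ± 0.24) and Mmp23 (-0.16 ± 0.21) did not pass. Timp2, an inhibitor of metalloproteinases, read 605.7, 737.9 and 736.8 in controls and 204.1, 181.5 and 172.1 with dexamethasone. The groups were tight and far apart, and the change was -1.90 ± 0.17 (adjusted p = 6.2e-05). A dimmer Timp2 probe set did not move with it (155.5 ± 23.4 and 164.4 ± 21.0, 0.08 ± 0.21), and with both averaged the fall was 0.91 and still called. Timp3, an inhibitor that binds to the matrix, averaged 164.9 ± 22.6 and 255.1 ± 66.4 and just missed the threshold (0.61 ± 0.22, adjusted p = 0.0560); it was called higher with quantile normalization, 75th percentile centring and no intensity trend. Timp1 was too dim to test.

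The rule's symbol pattern also took in 4 genes that are neither integrins nor classical claudins: Itgb1bp1, Itgb1bp2, Itgb3bp and Cldnd1. Itgb3bp, which encodes a centromere protein also described as an integrin-binding protein, had the largest fall of all members. It read 660.7, 750.7 and 606.3 in controls and was not above background on any treated array (51.9, 41.7 and 95.9), at least 6.76-fold lower (adjusted p = 3.2e-05). It passed the filter only through its control signals. Cldnd1 (-0.21 ± 0.12) and Itgb1bp1 (-0.04 ± 0.15) did not pass, and Itgb1bp2 was too dim to test. Without these 4 genes the called members numbered 6 higher and 10 lower.

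Among the 61 dim genes, treated signals lay all above control signals in 9 and all below in 5, that is in 14.8% and 8.20%, beside 15.4% and 9.73% of all 3360 genes below the filter. In a fit with no filter, 6 of the 61 passed, Cdh11, Cldn7, Col11a1, Gja3 and Mmp11 lower and Col9a1 higher. The matching share of all genes below the filter was not taken for that fit, so this count is not read as a result about the dim members. Over all 106 members that fit called 6 higher and 15 lower. Over all 10411 genes, bright ones included, it called 10.2% higher and 13.7% lower. Higher calls made up 28.6% of its calls among members, beside 42.6% among all genes. Mmp11, a secreted metalloproteinase, read 155.1, 157.2 and 149.3 in controls and was not above background with dexamethasone, at least 1.55-fold lower. Col9a1, which pairs with the chain of Col9a2, was not above background in controls and was above it on 2 treated arrays, at least 1.60-fold higher. Cldn7, a claudin of epithelia, read 227.3, 204.2 and 25.7 in controls and 19.9, 41.0 and 10.8 with dexamethasone, at least 1.07-fold lower, with control 3 unlike the other controls.

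Genes that work with these members were read from a separate list. It held proteins that tie cadherins, integrins and tight junctions to the cytoskeleton, and other adhesion molecules and surface receptors such as Esam, Sdc4 and Cd44. Of 43 on the array, 38 were tested, 3 rose, 10 fell and 25 did not pass, with a median of -0.15. That is 7.89% higher and 26.3% lower, beside 17.0% and 21.4% of all genes tested. Flna, encoding the actin cross-linker filamin A that binds integrin tails, fell from 660.8 ± 26.2 to 131.1 ± 42.4 (-2.38 ± 0.20, adjusted p = 3.8e-05). The treated mean of Flna was below the filter of 147.6, so it was tested only through its control signals. Treated signals of 126.1, 91.4 and 175.7 were each above the background of their array, by a small margin on dexamethasone 2. Ptk2, the focal adhesion kinase, fell by 0.76 ± 0.16 (lost when its probe sets were averaged), Actn4, an alpha-actinin, by 0.80 ± 0.21 (lost without pair 1, -0.50), and Ctnnal1, related to alpha-catenin, by 0.86 ± 0.18. Sdc4, a heparan sulfate receptor of focal adhesions, rose from 1244 ± 100 to 2702 ± 649 (1.10 ± 0.13, adjusted p = 0.000322). Zyx, encoding zyxin of focal adhesions, rose by 0.66 ± 0.14, and Esam by 0.49 ± 0.16, with the call of Zyx lost under hybridization control scaling and that of Esam under this, with no filter and without any 1 pair (0.45 to 0.56). With hybridization control scaling the list had 1 riser and 20 fallers.

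Other matrix proteins, collagen-modifying enzymes and proteases were read from a second list. Of 53 on the array, 27 were tested, 2 rose, 5 fell and 20 did not pass, with a median of -0.09. That is 7.41% higher and 18.5% lower, beside the same 17.0% and 21.4% of all genes. Tgm2, a transglutaminase that cross-links matrix proteins and binds fibronectin, rose from 436.5, 753.4 and 429.3 in controls to 6522, 6168 and 3647 with dexamethasone (3.34 ± 0.18, adjusted p = 2.8e-06). Vtn, encoding the integrin ligand vitronectin, rose by 0.54 ± 0.12, a call lost with no replicate block (limma adjusted p = 0.131) and with hybridization control scaling. Eln (elastin) fell by 1.05 ± 0.20, Plod2, a collagen lysyl hydroxylase, by 0.87 ± 0.15, Fbn1 (fibrillin) by 0.82 ± 0.16 and Hspg2, the basement membrane proteoglycan perlecan, by 0.62 ± 0.19. Eln had a treated mean of 140.5, below the filter, so it was tested only through its control signals. The call of Hspg2 was lost with quantile normalization, 75th percentile centring, no filter and without pair 1 (-0.58) or pair 3 (-0.46). With hybridization control scaling the list had 1 riser and 10 fallers.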

How the data were processed

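Per the submitters' processing notes, the authors used GCOS and MAS5 to make the deposited signal intensity, 1 linear value per probe set and array; their versions and scaling settings are not given in the sources used here. Arrays were not pooled or normalized again. There were 15923 probe sets, 57 of them array controls. Symbols came from the platform annotation: 12783 probe sets had 1 symbol, 312 several and 2771 none. Zeros (4 values) were replaced by 0.1 before the log2 step. Probe sets at or above the 40th percentile of mean log2 signal (9520) were fitted on treatment, blocked by replicate number (limma 3.58.1, R 4.3.3, eBayes with an intensity trend, Benjamini-Hochberg, threshold 0.05). The design text calls the cultures pairs; the deviations of same-numbered arrays from their group means correlated at -0.0951, 0.112 and 0.211, and no label states that the number marks a pair, so the block is an assumption. Where a group was at background on every array, a fold is a bound against the higher of background and signal. The limma step was tested on simulated data.

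Members and lists were chosen with earlier results of these data known. Every called member was named, with the brightest of each family, Gjb1, Gjb2 and the 4 largest called changes each way in both lists; other genes are named to account for all members, and those of the dim set were chosen after their values were seen. Alternatives were no block, no or a stricter filter (60th percentile), quantile, 75th percentile and hybridization control scaling (18 probe sets), a pseudocount of 50, no trend, each pair left out, and averaged probe sets.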

Additional observations from a re-analysis of the deposited data

How the results depend on the processing

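Of the 17 called members, 9 kept their call and direction in all fits that tested them, 8 lost the call in at least 1 fit and 0 reversed. The stricter filter left 3 members higher, and 3 of the other matrix genes lower. With 75th percentile centring 11 members were higher. With hybridization control scaling 18 members were lower, 1 adhesion partner was higher and 20 lower, and 1 other matrix gene was higher and 10 lower. With no replicate block 6 members were higher and 10 lower (Epcam lost), and 1 other matrix gene was higher (Vtn lost). Leaving out a pair gave 5 to 6 members higher and 9 to 11 lower, in fits that rest mostly on variance borrowed from other probe sets. Among genes that did not pass, the sign reversed for Mmp24 with averaged probe sets (-0.14), Col4a1 and Col4a2 with hybridization control scaling (-0.10 and -0.010), and Lama3 with 75th percentile centring (0.021) and with a pair left out (-0.177 to 0.012). The cause was not tested. Signals near background, and 3 arrays per group, limit what could be detected.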
